A study of Homo sapiens with 14 samples.

Results

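The miR-200 family comprises 9 mature miRNAs from 5 hairpins, and all 9 were read by name from the 2588 mature miRNAs counted in each of 2 assays for N7-methylguanosine (m7G), a guanine that carries an extra methyl group. The members are those of the family by name, and no count entered that rule, although it was set with earlier results of these data known. On chromosome 1, the miR-200b cluster gives 5 of them: hsa-miR-200b-5p, hsa-miR-200b-3p, hsa-miR-200a-5p, hsa-miR-200a-3p and hsa-miR-429. On chromosome 12, the miR-200c cluster gives the other 4: hsa-miR-200c-5p, hsa-miR-200c-3p, hsa-miR-141-5p and hsa-miR-141-3p. The prefix for human is left out below.

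A miRNA is cut from a hairpin precursor, whose 2 strands are called the 5p and the 3p arm after their place in it. The arm that is kept by an Argonaute protein pairs with messenger RNAs, chiefly through its seed, bases 2 to 8 counted from the 5′ end. The miR-200 family is known for keeping epithelial cells epithelial: its 3p arms repress ZEB1 and ZEB2, transcription factors that switch off the adhesion gene CDH1, and these factors in turn repress both miR-200 clusters.

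All 14 libraries were small RNA libraries from A549 cells, an established human lung adenocarcinoma line, with no genetic or drug treatment of the cells in any group. In BoRed-Seq, RNA was treated with NaBH4, which reduces m7G. The reduced base is then lost, the abasic site is bound by a biotin-coupled aldehyde reactive probe, and streptavidin beads retain the RNA. The 2 Red libraries hold RNA retained in this way, and the 2 Ctrl libraries come from RNA that received NaBH4 quenched with acid beforehand. The protocol of the study takes Ctrl RNA through base removal and probe coupling as well, so Ctrl is a mock-reduced arm and not RNA from before the procedure. In m7G-RIP, heat-denatured RNA was precipitated with an anti-m7G antibody, which gave 5 IP libraries, and 5 Input libraries hold RNA set aside before precipitation. RNA of both assays had been decapped. The assays ask which mature miRNAs were over-represented in RNA selected for m7G. The labels number the replicates but do not say that they came from separate cultures, so p-values measure the spread between these libraries, which may be technical.

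Library totals were 242085 and 277498 counts in Red, 4678102 and 5874405 in Ctrl, 2854811 to 6452759 in IP and 7097379 to 14874685 in Input. Among the m7G-RIP libraries, replicates 4 and 5 stood apart from replicates 1 to 3 in Input and in IP alike, so values within each set are given beside the pooled ones; the labels do not say what set them apart. A single miRNA, miR-21-5p, took 79.0% and 80.4% of the Ctrl counts and 26.9% and 26.7% of the Red counts, against 38.0% to 46.3% in Input and 4.64% to 6.27% in IP. Enrichment below is therefore relative to the typical miRNA, from the median-of-ratios scaling of DESeq2. Of 9 miRNAs that mark muscle, liver, blood or neurons, 4 had no count in either Ctrl library, and their summed level was 1.53 to 4.49 counts for a library total of 1000000 (CPM) in Ctrl, 62.0 to 115 CPM in Red, 0.32 to 6.76 CPM in Input and 5.1 to 22.8 CPM in IP. The part of this rise in the results of the family was not tested.

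The mature sequences (RefSeq, GRCh38.p14) are shown because the comparisons below are between seeds, arms and near-identical members. RefSeq entries were matched for 8 of the 9 members, and miR-141-5p is named only. Capitals mark the seed.

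The first seed group was carried by miR-200b-3p and miR-429 of one cluster and miR-200c-3p of the other:
miR-200b-3p: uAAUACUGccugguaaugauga
miR-429: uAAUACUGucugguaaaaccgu
miR-200c-3p: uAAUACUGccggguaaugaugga

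The second seed group was carried by miR-200a-3p and miR-141-3p, again 1 member from each cluster:
miR-200a-3p: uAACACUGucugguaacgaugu
miR-141-3p: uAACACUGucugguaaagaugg

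The 5p arms are the partner strands:
miR-200b-5p: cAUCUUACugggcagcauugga
miR-200a-5p: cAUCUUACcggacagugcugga
miR-200c-5p: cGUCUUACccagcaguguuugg

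In the RefSeq table no other human mature miRNA held either 3p seed, AAUACUG in 3 miRNAs and AACACUG in 2. Within the first seed group, miR-200b-3p and miR-200c-3p were the closest pair. They differed by U11G and A22G, where positions count from 1 at the 5′ end and the base of miR-200b-3p stands first, and miR-200c-3p had 23 bases against 22. Capitals mark the bases that differ:
miR-200b-3p: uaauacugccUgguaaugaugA
miR-200c-3p: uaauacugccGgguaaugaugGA

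The U11G change gave miR-200c-3p a run of 3 guanines and 7 guanines in all, against 5 in miR-200b-3p and in miR-200a-3p and 4 in miR-429. A run of 3 guanines was also present in miR-200b-5p, which had 6 guanines, whereas no other matched member had a run longer than 2. Reads of miR-200b-3p and miR-200c-3p that had lost their 3′ end differ at 1 base only, and the alignment allowed 1 mismatch. Where that base was misread, a read may have been counted for the other member, in exchange of a part of their counts. The size of that exchange was not tested.

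In GRCh38 the hairpins of the first cluster lie on the plus strand at chr1:1167104-1167198 (MIR200B), chr1:1167863-1167952 (MIR200A) and chr1:1169005-1169087 (MIR429), and together span 1984 bases. They fall within the RefSeq host transcript MIR200BHG, and GENCODE 44 places no other gene over them. The hairpins of the second cluster lie on the plus strand at chr12:6963699-6963766 (MIR200C) and chr12:6964097-6964191 (MIR141), span 493 bases, and both fall in an intron of the non-coding gene MIR200CHG.

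In the libraries of the control arms, Input and Ctrl, miR-200b-3p was the most abundant member throughout. It held 76.7% ± 5.8 (SD, n = 5) of the family's counts in Input and 67.2% ± 1.98 (SD, n = 2) in Ctrl. The order of the next members differed between Input and Ctrl, which are not controls of the same kind. In Input, miR-200c-3p was second in every library, at 55.4 to 88.2 CPM, whereas in Ctrl, at 12.4 and 16.2 CPM, it came after miR-200b-3p, miR-200a-3p at 29.7 and 30.6 CPM and miR-200a-5p at 18.7 and 18.8 CPM. In Input the ranges of miR-200a-3p, 13.7 to 52.8 CPM, and miR-200a-5p, 18.7 to 28.4 CPM, overlapped, so their order there was not set beyond the spread. miR-429 at 2.80 to 13.4 CPM and miR-200b-5p at 3.68 to 6.92 CPM also overlapped. CPM values of different members carry the ligation and reverse transcription bias of each sequence, and a mature miRNA needs no length correction.

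The miR-141 arms and miR-200c-5p were at the edge of detection. miR-141-5p had 1 count in Ctrl 2 and no count in the other 13 libraries. miR-200c-5p had no count in the BoRed-Seq libraries or in IP, and 0, 0, 6, 3 and 1 counts in Input 1 to 5. miR-141-3p, which shares its seed with miR-200a-3p, had 14 and 6 counts in Ctrl, 0 and 1 in Red, 8 over the 5 Input libraries and 4 over the 5 IP libraries. A count of 0 still allows a share of up to 0.00124% of the library in Red 1, where totals were lowest, and up to 4.23e-05% in Input 1, for counting error only. The miR-200c cluster was thus measured almost through miR-200c-3p alone, which held 12.3% of the 12.4% of family counts from that cluster in Input.

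The family as a whole differed between the sets of Input libraries. It summed to 366 to 415 CPM in Input 1 to 3 and to 996 and 1030 CPM in Input 4 and 5, and miR-200b-3p carried most of this, with 258 to 307 CPM against 829 and 850 CPM. Counts from bulk RNA cannot tell fewer cells with a miRNA from less of it in each cell. In IP the family summed to 211 to 235 CPM in all 5 libraries, with no such step. In BoRed-Seq the family summed to 214 and 248 CPM in Ctrl and to 409 and 818 CPM in Red. Over the same libraries miR-21-5p went from 79.0% and 80.4% of the Ctrl counts to 26.9% and 26.7% of the Red counts. The CPM of the other miRNAs rises when that share falls, so the sums are not enrichments. The same holds between Input and IP, where the share of miR-21-5p fell too.

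The 3p arms of the miR-200b cluster were depleted in the m7G immunoprecipitates. miR-200b-3p, miR-200a-3p and miR-429 fell in IP relative to Input, while miR-200c-3p of the other cluster was not called over all 5 replicates and had opposite signs in the 2 sets of replicates. Of the 9 members, 6 passed the filter of at least 10 counts in at least 5 libraries. Of these, 3 were depleted and 1 was enriched at an adjusted p under 0.05 (DESeq2 Wald test, Benjamini-Hochberg over 670 miRNAs). Over all miRNAs tested, 29.9% were depleted and 27.3% enriched, 57.2% being called in all.

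miR-200b-3p had normalized counts of 2073, 2584, 2687, 6185 and 6576 in Input 1 to 5 and of 742.6, 644.8, 457.3, 696.1 and 687.8 in IP 1 to 5. Every Input library lay above every IP library, which was the case for 42.4% of all miRNAs tested in one direction or the other. The log2 enrichment was -2.64 ± 0.35 (SE), a 6.22-fold lower level, with an adjusted p of 9.23e-13 (DESeq2). It was -2.03 in replicates 1 to 3 and -3.24 in replicates 4 and 5, and Input differed between the sets while the IP values of both lay close together.

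miR-200a-3p, which carries the second seed, had normalized counts of 145.8, 127.7, 119.7, 353.0 and 418.4 in Input 1 to 5. In IP 1 to 5 its raw counts were 0, 3, 1, 52 and 19, and its normalized counts were 0, 3.69, 2.11, 52.7 and 24.1. The groups did not overlap, but the IP libraries of replicates 1 to 3 were close to 0 and those of replicates 4 and 5 were not. Its log2 enrichment was -3.79 ± 0.85 (SE), a 13.9-fold lower level with an adjusted p of 2.51e-05 (DESeq2), and was -6.11 in replicates 1 to 3 and -3.33 in replicates 4 and 5. With 1 library left out it ran from -4.91 (without IP 4) to -3.47, and it was -4.71 with the replicate number as a block.

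miR-429, which shares the seed of miR-200b-3p, had normalized counts of 52.0, 33.0, 24.5, 97.6 and 77.8 in Input 1 to 5. In IP 1 to 5 its raw counts were 0, 8, 0, 26 and 1, and its normalized counts were 0, 9.84, 0, 26.4 and 1.27. IP 4 exceeded Input 3, so the groups overlapped. The log2 enrichment was -2.88 ± 0.92 (SE) with an adjusted p of 0.00411 (DESeq2), and was -3.41 in replicates 1 to 3 and -2.65 in replicates 4 and 5. With 1 library left out it ran from -4.24 (without IP 4) to -2.55, and it was -4.02 with the replicate number as a block.

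miR-200c-3p, whose seed is that of miR-200b-3p and miR-429, had normalized counts of 475.9, 491.6, 547.6, 642.0 and 628.5 in Input 1 to 5. In IP 1 to 5 it had 647.6, 525.4, 764.9, 337.4 and 426.4. The groups overlapped widely. Its log2 enrichment, -0.05 ± 0.25 (SE), had an adjusted p of 0.884 (DESeq2). IP stood above Input in each pair of replicates 1 to 3 and below it in both pairs of replicates 4 and 5. Fitted alone, replicates 1 to 3 gave 0.31 (adjusted p = 0.212, DESeq2) and replicates 4 and 5 gave -0.77 (adjusted p = 0.000994, DESeq2), so the pooled value near 0 averages sets of opposite sign. The difference between the sets was not tested.

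The 5p arms differed from each other and from their 3p partners. miR-200b-5p had normalized counts of 32.8, 41.9, 32.2, 50.3 and 44.2 in Input 1 to 5 and of 15.8, 54.1, 75.9, 161.1 and 157.4 in IP 1 to 5. IP 1 was the lowest of all 10 libraries and the other 4 IP libraries lay above every Input library. Its log2 enrichment was 1.21 ± 0.53 (SE), with an adjusted p of 0.0396 (DESeq2), and the call did not hold with the replicate number as a block (0.89, adjusted p = 0.0903), with edgeR (1.20, adjusted p = 0.0659) or in replicates 1 to 3 alone (0.40, adjusted p = 0.65), whereas replicates 4 and 5 alone gave 1.72 (adjusted p = 9.51e-05, DESeq2).

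miR-200a-5p had normalized counts of 152.6, 252.2, 221.3, 152.3 and 148.2 in Input 1 to 5 and of 104.2, 130.4, 115.9, 144.9 and 177.7 in IP 1 to 5. The groups overlapped only through IP 5, which exceeded 3 Input libraries, and IP lay below Input in 4 of the 5 same-numbered pairs. The log2 enrichment was -0.46 ± 0.26 (SE) with an adjusted p of 0.118 (DESeq2); it was -0.87 in replicates 1 to 3 (adjusted p = 0.0241, DESeq2) and 0.06 in replicates 4 and 5 (adjusted p = 0.88, DESeq2). Scaled to totals that leave out miR-21-5p, it was depleted at -0.84 (adjusted p = 0.00161, DESeq2).

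**Figure D1:**
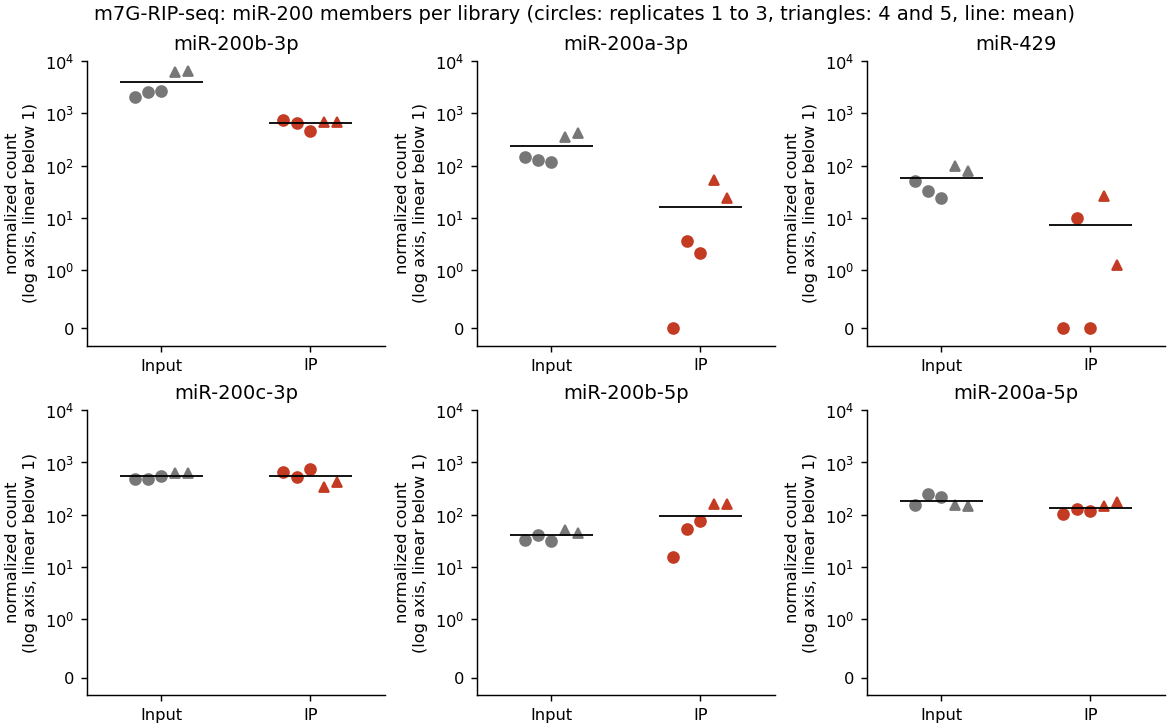
Normalized counts (log axis, linear below 1) of the 6 members that passed the filter in m7G-RIP, in 5 Input libraries (grey) and 5 IP libraries (red); circles are replicates 1 to 3, triangles are replicates 4 and 5 and lines are group means. The 3p arms of miR-200b and miR-200a lie lower in every IP library than in any Input library, while miR-200c-3p lies between 337.4 and 764.9 in both groups.

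In BoRed-Seq the picture was led by miR-200c-3p, which rose in Red while no other member was called. Of the 9 members, 5 passed the filter of at least 10 counts in at least 2 libraries. Of these, 1 was enriched and 0 were depleted, against 32.2% enriched, 27.3% depleted and 59.5% called among the 400 miRNAs with an adjusted p. The count of 0 depleted members held at an unadjusted p under 0.05 too (DESeq2), and edgeR called 1, miR-429.

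miR-200c-3p had 95 and 58 raw counts in Ctrl and 53 and 66 in Red, although the Red libraries were far smaller. Its normalized counts were 26.3 and 21.6 in Ctrl and 196.3 and 161.5 in Red. The groups did not overlap, as for 81.5% of the miRNAs that passed the filter. The log2 enrichment was 2.89 ± 0.44 (SE), a 7.43-fold higher level with an adjusted p of 1.65e-10 (DESeq2), and 79.5% of the miRNAs tested had a lower one.

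miR-200b-3p had 1000 and 659 raw counts in Ctrl and 35 and 106 in Red, or normalized counts of 276.7 and 245.0 against 129.6 and 259.4. Red 2 lay between the Ctrl libraries and Red 1 lay below both. Its log2 enrichment was -0.41 ± 0.41 (SE) with an adjusted p of 0.403 (DESeq2), and its sign depended on the scaling: with total counts it was 0.76.

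Both arms of miR-200a had the same order of libraries. miR-200a-3p had normalized counts of 49.8 and 51.7 in Ctrl and 22.2 and 90.5 in Red (log2 0.19 ± 0.65 SE, adjusted p = 0.811, DESeq2). miR-200a-5p had 30.4 and 32.7 in Ctrl and 14.8 and 34.3 in Red (log2 -0.32 ± 0.74 SE, adjusted p = 0.725, DESeq2). For both, Red 1 lay below and Red 2 above the Ctrl libraries, on 4 to 37 raw counts in Red, and no difference between the groups was detectable at this depth.

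miR-429 had 50 and 41 raw counts in Ctrl and 0 and 1 in Red. Scaled by the size factors of the libraries, the rate in Red was 0.102 of that in Ctrl, with an exact 95% counting interval of 0.00256 to 0.583. The fitted log2 enrichment of -3.31 ± 1.78 (SE) had an adjusted p of 0.0985 (DESeq2) and of 0.0115 with edgeR. miR-200b-5p had 9 and 9 raw counts in Ctrl and 1 and 2 in Red, for a rate ratio of 1.55 with an interval of 0.292 to 5.3, and miR-141-3p had a rate ratio of 0.464 with an interval of 0.0112 to 2.90; neither was tested.

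**Figure D2:**
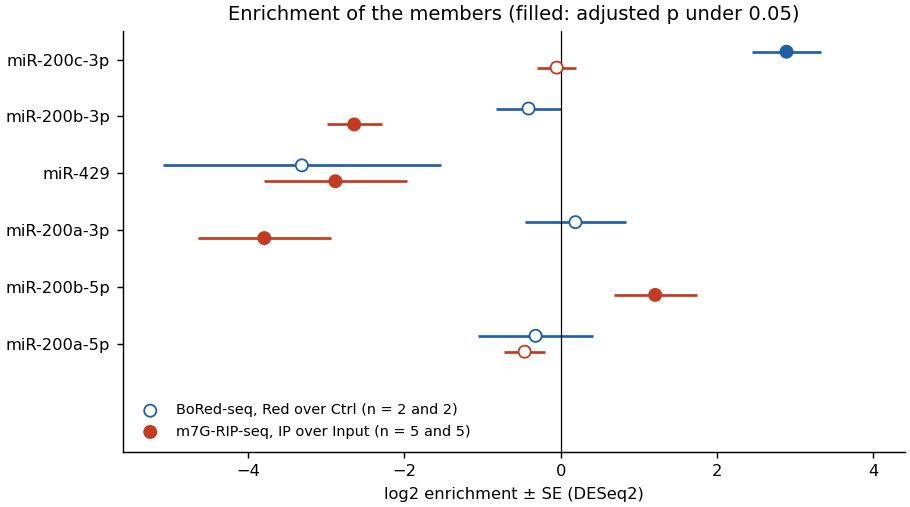
Log2 enrichment with its SE for the members fitted in BoRed-Seq (blue, Red over Ctrl, 2 libraries each) and m7G-RIP (red, IP over Input, 5 libraries each); filled points passed an adjusted p of 0.05. miR-200c-3p lies at 2.89 and -0.05, miR-200b-3p at -0.41 and -2.64, and miR-429 at -3.31 and -2.88.

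Between the assays, 3 of the 5 members fitted in both had a higher enrichment in BoRed-Seq than in m7G-RIP, and 0 had a lower one (z test, Benjamini-Hochberg over 384 miRNAs). At an unadjusted p under 0.05 the lower count was also 0. Over all 384 miRNAs, 29.4% were higher in BoRed-Seq, 8.59% were higher in m7G-RIP and 38.0% were called in all. The difference in log2 enrichment was 2.94 ± 0.50 (SE) for miR-200c-3p (adjusted p = 6.35e-08 by that test across all miRNAs), 2.23 ± 0.54 for miR-200b-3p (adjusted p = 0.000239) and 3.99 ± 1.07 for miR-200a-3p (adjusted p = 0.00102). For miR-200a-5p it was 0.14 ± 0.78 (adjusted p = 0.904), and for miR-429, which was low in both pulldowns, it was -0.43 ± 2.0 (adjusted p = 0.887). miR-200c-3p was enriched in BoRed-Seq and not called in m7G-RIP, whereas miR-200b-3p was depleted in m7G-RIP and not called in BoRed-Seq.

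The ratio of 2 members within a library needs no scaling between libraries, and 5 of the 9 ratios between members could be tested in m7G-RIP. The share of all pairs of miRNAs, or of all hairpins, whose ratios do not overlap between the groups was not computed. The clearest comparison of the clusters is the ratio of miR-200c-3p to miR-200b-3p, which have the same seed. In Input 1 to 5 there were 0.230, 0.190, 0.204, 0.104 and 0.0956 reads of miR-200c-3p for each read of miR-200b-3p, and in IP 1 to 5 there were 0.872, 0.815, 1.67, 0.485 and 0.620. Every IP ratio lay above every Input ratio, and IP 3 was the only one of them in which miR-200c-3p outnumbered miR-200b-3p. The mean log2 ratio rose from -2.69 ± 0.59 (SD, n = 5) to -0.30 ± 0.67 (SD, n = 5), a 5.26-fold rise, with an exact permutation p of 0.00794 (two-sided, the smallest possible) and an adjusted p of 0.0132 over the 5 ratios.

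In BoRed-Seq the same ratio was 0.0955 and 0.0887 in Ctrl and 1.51 and 0.624 in Red. Both Red libraries lay above both Ctrl libraries, a 10.5-fold rise of the mean ratio on the log2 scale. No test is given, since 2 libraries against 2 cannot go below a p of 0.333. The ratio between these same-seed members was thus higher in every IP library than in Input and in both Red libraries than in Ctrl, although miR-200c-3p was called only in BoRed-Seq and miR-200b-3p only in m7G-RIP.

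The arms of MIR200B and MIR200A, the hairpins whose arms both passed the filter, also parted in m7G-RIP. The MIR200B hairpin is shown for their place in it, with the 5p and then the 3p arm in capitals (RefSeq, plus strand, chr1:1167104-1167198):
MIR200B: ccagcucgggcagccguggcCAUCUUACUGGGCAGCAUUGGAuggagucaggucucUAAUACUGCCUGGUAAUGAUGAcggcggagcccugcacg

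For MIR200B the ratio of 5p to 3p reads was 0.0161, 0.0163, 0.0121, 0.00819 and 0.00677 in Input 1 to 5 and 0.0222, 0.0848, 0.168, 0.232 and 0.229 in IP 1 to 5. The groups did not overlap, although IP 1 lay close above Input 2. The mean log2 ratio rose by 3.31, or 9.90-fold, from -6.48 ± 0.57 to -3.17 ± 1.43 (SD, n = 5; exact permutation p = 0.00794, adjusted p = 0.0132), and the 3p arm remained the more abundant in every library.

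For MIR200A the 5p to 3p ratio was 1.05, 1.97, 1.85, 0.432 and 0.355 in Input 1 to 5 and 159, 30.4, 37.0, 2.73 and 7.21 in IP 1 to 5, with 0.5 counts added to both arms. The 2 sets of replicates differed already in Input, where the 5p arm was ahead in replicates 1 to 3 and the 3p arm in replicates 4 and 5, and within each set IP lay far above Input. The mean log2 ratio rose by 4.51, or 22.7-fold (exact permutation p = 0.00794, adjusted p = 0.0132). The rise was 3.76 without IP 1 and 5.23 without IP 4. In BoRed-Seq the ratio was 0.612 and 0.634 in Ctrl and 0.692 and 0.387 in Red, so the groups overlapped.

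For these 3 ratios all 5 same-numbered pairs of libraries moved the same way. An exact permutation within those pairs gave 0.0625, the smallest p that 5 pairs allow, and an adjusted p of 0.104, so the calls rest on the test without pairs. Arms of other hairpins parted in m7G-RIP too, such as those of miR-30a (log2 enrichment -3.88 for 5p, 1.08 for 3p). Those of miR-378a did not (-2.12 and -1.98).

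The ratios between 3p arms of the first cluster did not pass the test with all libraries. The log2 ratio of miR-200a-3p to miR-200b-3p, which differ in seed by U4C and come from hairpins 664 bases apart, changed by -2.46 in IP (exact permutation p = 0.0635, adjusted p = 0.0794, lower in 4 of 5 pairs). With 1 library left out the change ran from -3.19 (without IP 4, adjusted p = 0.0198, exact permutation) to -1.58. It leans on IP 1 to 3, where miR-200a-3p had 0, 3 and 1 raw counts. The log2 ratio of miR-429 to miR-200b-3p, which share a seed, changed by -1.47 (exact permutation p = 0.175, adjusted p = 0.175, lower in 3 of 5 pairs). The 4 other ratios, those with miR-141 or with the 5p arm of miR-200c, could not be formed because at least 1 member was too low.

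**Figure D3:**
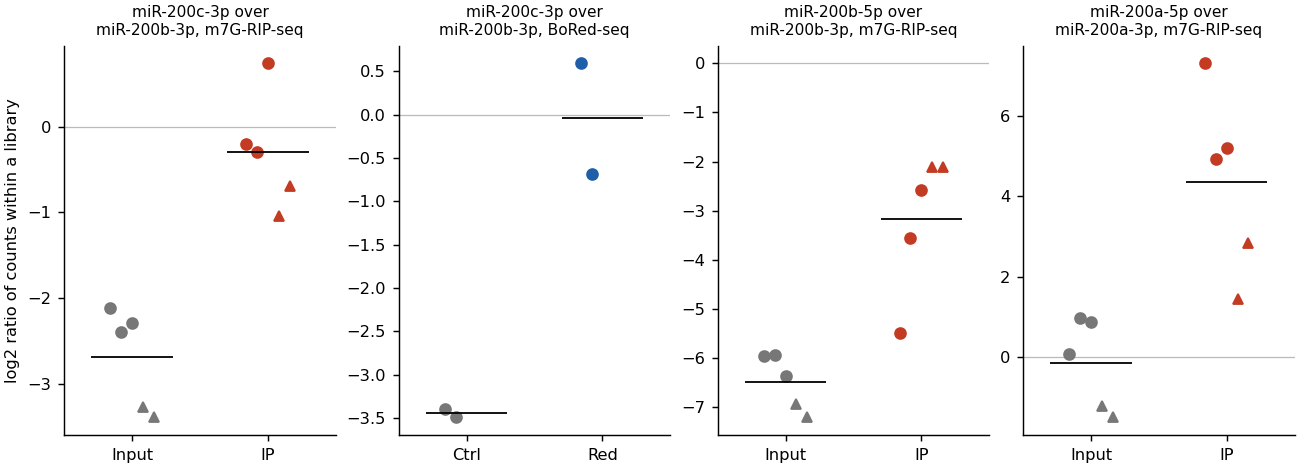
Log2 ratio of the counts of 2 members within each library, each panel with its own axis; circles are replicates 1 to 3, triangles are replicates 4 and 5, lines are group means and the grey line marks equal counts. In all 4 panels every pulldown library lies above every control library, with rises of the mean of 2.40, 3.40, 3.31 and 4.51.

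The make-up of the family changed accordingly, given here as shares with no test. The miR-200c cluster held 12.4% ± 3.82 (SD, n = 5) of the family's counts in Input, 7.98% to 16.2%, and 37.6% ± 11.9 (SD, n = 5) in IP, 23.8% to 54.0%. In BoRed-Seq it held 6.49% and 7.48% in Ctrl and 53.5% and 29.5% in Red. No IP library overlapped an Input library in this share, and no Red library a Ctrl library. How often this holds for other families was not computed. miR-200b-3p fell from 76.7% ± 5.8 to 44.8% ± 7.09 between Input and IP, and the 5p arms of miR-200a and miR-200b together went from 5.35% ± 2.64 to 15.8% ± 6.19 (SD, n = 5).

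**Figure D4:**
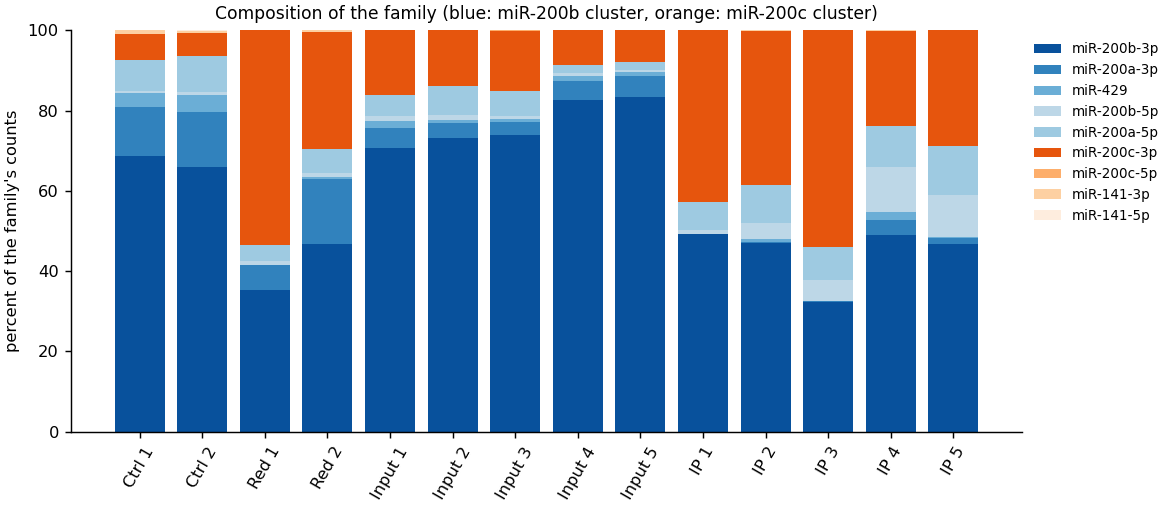
Percent of the family's raw counts held by each member in the 14 libraries; blue shades are the miR-200b cluster and orange shades the miR-200c cluster. The orange share, almost all miR-200c-3p, is 6.49% to 16.2% in the Ctrl and Input libraries and 23.8% to 54.0% in the Red and IP libraries.

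Since m7G is a modified guanine, the enrichments were set beside the number of guanines in the mature sequence, a property the choice of members did not use. Across miRNAs, which are not independent replicates, Spearman's rho between the number of guanines and log2 enrichment was 0.365 in BoRed-Seq (355 of 400 tested miRNAs with a RefSeq sequence) and 0.435 in m7G-RIP (602 of 670). The points share libraries and scaling, and this is a description. miRNAs with 5 guanines had a median log2 enrichment of -0.72 in BoRed-Seq and -0.65 in m7G-RIP, those with 6 had -0.73 and -0.34, those with 7 had -0.12 and -0.42, and those with 8 or more had 2.22 and 1.38.

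Within the family the members did not follow 1 order by guanines. miR-200c-3p, with 7 guanines, had the highest log2 enrichment in BoRed-Seq at 2.89, above the upper quartile of 1.05 for its guanine number, and in m7G-RIP its -0.05 lay between the median of -0.42 and the upper quartile of 0.42. miR-429, with 4 guanines, had the lowest in BoRed-Seq, -3.31, below the lower quartile of -2.24 for miRNAs with 4 or fewer. miR-200b-3p and miR-200a-3p, with 5, lay at -2.64 and -3.79 in m7G-RIP, both below the lower quartile of -2.22 for their guanine number. In BoRed-Seq these members lay at -0.41 and 0.19, between the median of -0.72 and the upper quartile of 0.73. miR-200b-5p, with 6, had the highest in m7G-RIP at 1.21, above the upper quartile of 0.54, while miR-200a-5p, also with 6, lay at -0.46, below the median of -0.34. In BoRed-Seq miR-200a-5p lay at -0.32, above the median of -0.73. In m7G-RIP miR-429, with the fewest guanines, lay at -2.88, above miR-200a-3p with 5.

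The members with a GGG run, miR-200b-5p and miR-200c-3p, were also the members called enriched, miR-200c-3p in BoRed-Seq and miR-200b-5p in m7G-RIP, where its call did not hold with edgeR or the block. miR-200c-3p was not called in m7G-RIP, and miR-200b-5p was not tested in BoRed-Seq. Over all matched miRNAs, those with GGG were enriched in 46.5% of 114 cases in BoRed-Seq and 44.3% of 212 in m7G-RIP, against 25.3% of 241 and 19.7% of 390 without it. A GGG run needs guanines, and whether the run matters at an equal number of guanines was not tested.

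**Figure D5:**
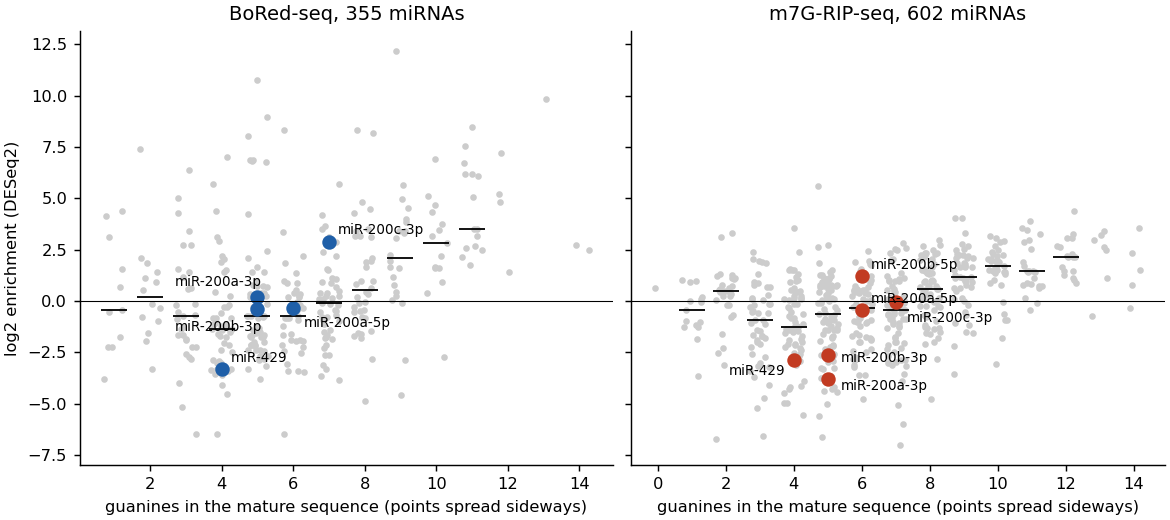
Number of guanines in the mature sequence against log2 enrichment (DESeq2) for the miRNAs with a RefSeq sequence (grey; 355 in BoRed-Seq, 602 in m7G-RIP), with family members in colour and black dashes at the median of each guanine number held by at least 10 miRNAs. miR-200c-3p with 7 guanines lies at 2.89 and -0.05, and miR-200b-3p with 5 lies at -0.41 and -2.64.

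Other miRNAs tied to the epithelial state were read from the same fits to place the family. Of a list of 10, 8 passed the filter in each assay. In BoRed-Seq 2 were enriched and 4 depleted (over all miRNAs tested, 32.2% and 27.3%), with a median log2 enrichment of -1.22 against -0.09 over all miRNAs tested. In m7G-RIP 3 were enriched and 5 depleted (over all, 27.3% and 29.9%), with a median of -1.97 against 0.02. miR-375 was enriched in both assays, by 3.02 ± 0.40 and 2.00 ± 0.35 (log2 ± SE), whereas miR-192-5p was depleted at -3.41 and -2.77 and miR-101-3p at -3.38 and -4.26. Also depleted were miR-34a-5p, at -1.63 in BoRed-Seq and -4.76 in m7G-RIP, and miR-215-5p, in m7G-RIP only (-0.83 and -2.66). miR-182-5p, a member of a cluster expressed in sensory epithelia and many carcinomas, was enriched in m7G-RIP at 1.51 ± 0.21 and stood at -0.12 ± 0.29 in BoRed-Seq. In the same cluster, miR-183-5p was enriched in BoRed-Seq and m7G-RIP (0.75 and 1.11), and miR-96-5p was depleted in both (-1.62 and -1.28). miR-205-5p, which also represses ZEB1 and ZEB2, was too low to test, with 1 and 9 counts over the Ctrl and Red libraries and 55 and 55 over Input and IP, and miR-203a-3p had no count in any library.

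Of 6 miRNAs tied to migration or the mesenchymal state, 5 passed in BoRed-Seq, with 1 enriched and 3 depleted (median -0.75 against -0.09 over all, of which 59.5% were called). In m7G-RIP 6 passed, with 1 enriched and 4 depleted (median -1.42 against 0.02 over all, of which 57.2% were called). The neighbours miR-221-3p and miR-222-3p, made from 1 transcript, parted in m7G-RIP: miR-221-3p was depleted at -2.0 ± 0.30 and miR-222-3p was enriched at 0.59 ± 0.21 (log2 ± SE), a call lost with totals that leave out miR-21-5p (0.21, adjusted p = 0.384, DESeq2) and without Input 1 (adjusted p = 0.053, DESeq2). In BoRed-Seq, calls of list members were lost in at least 1 fit that left out a library: miR-34a-5p, miR-96-5p and miR-222-3p without Ctrl 2 or Red 1, miR-183-5p without Ctrl 1, Ctrl 2 or Red 2, and miR-9-5p without any 1 of the 4. Scaling ended some of these calls too: with total counts miR-34a-5p was at -0.47, miR-96-5p at -0.44 and miR-9-5p at 0.37, and with totals that leave out miR-21-5p miR-183-5p was at 0.05 and miR-222-3p at 0.21.

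Over the 10 m7G-RIP libraries, among the 313 tested miRNAs whose normalized counts averaged 100 or more, the levels most like those of miR-200b-3p were those of miR-378a-5p (Pearson r = 0.978), miR-31-5p (0.970) and miR-10b-5p (0.969), all of which were depleted in IP. Of its cluster partners, miR-200a-3p had r = 0.851 and miR-200a-5p had r = 0.453. For miR-200c-3p of the other cluster r was 0.196. The levels most like those of miR-200c-3p were those of miR-5010-3p (0.868), miR-424-5p (0.797) and miR-548k (0.772), none of which was called. These libraries share 2 groups and 2 sets of replicates, so the values describe likeness across them and carry no test.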

How the data were processed

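The authors deposited unnormalized read counts for 2588 mature miRNAs in a table for each assay, with 0 entries that name no miRNA and 0 columns without a sample. According to the methods of the study, stranded single-end NEBNext libraries were trimmed with Trimmomatic and aligned end to end to hg38 with STAR (the submitters' processing notes name Bowtie2), and featureCounts counted reads over miRBase. Replicates were not pooled, and reads matching several loci were kept up to a limit, so members of near-identical sequence may exchange counts.

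The members and lists were chosen with earlier results of these data known. The miRNAs named are the 9 members, the listed miRNAs, and the 3 whose levels correlate best with the most abundant member of each cluster. DESeq2 1.42.0 (Wald test, no covariate, median-of-ratios factors, unshrunken log2) in R 4.3.3 was fitted per assay to miRNAs with at least 10 counts in 2 (BoRed-Seq) or 5 (m7G-RIP) libraries. Every adjusted p of an enrichment is Benjamini-Hochberg adjusted over all miRNAs tested, from DESeq2 unless edgeR (4.0.16, quasi-likelihood) is named. Differences between assays used a two-sided z test on the standard errors, and count ratios, with 0.5 added, a two-sided exact permutation test. The fitting code was tested on simulated data. Rate ratios of low counts have exact 95% intervals; these and the limits of 3 counts cover counting error only, since no molecular identifiers were used.

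Same-numbered Input and IP libraries deviated together from their group means (r = 0.146 to 0.387), so the numbers were taken to pair them, although libraries of different number within replicates 1 to 3, and within 4 and 5, did so to a like degree. Sequences and positions came from RefSeq (GRCh38.p14) and gene overlaps from GENCODE 44.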

Additional observations from a re-analysis of the deposited data

Results flagged for a closer look

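A test of the difference between the assays marked 3 members, each with a higher log2 enrichment in BoRed-Seq (Red over Ctrl) than in m7G-RIP (IP over Input). The differences were 2.94 for miR-200c-3p, 2.23 for miR-200b-3p and 3.99 for miR-200a-3p (two-sided z test adjusted over 384 miRNAs, adjusted p = 6.35e-08, 0.000239 and 0.00102). In one fit over all 14 libraries with an interaction term they were 2.48, 1.78 and 3.56, with adjusted p of 2.77e-06, 0.0198 and 0.0465 (DESeq2). Under other scalings, of which those with TMM factors and with total counts that leave out miR-21-5p were chosen after seeing the data, they ran from 2.57 to 3.70, from 1.95 to 3.11 and from 3.75 to 4.93, all called. Across 12 groups of 5 libraries (the 6 members fitted in m7G-RIP, in Input and in IP), no library lay apart from the others by Dixon's test at its 95% critical value of 0.71; chance marks about 1 group in 20. That test looks for 1 library apart, so libraries that move together, as Input 4 and 5 did for miR-200b-3p, can mask each other.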

How the results depend on the processing

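With total counts the median of all miRNAs shifted by 1.28 (log2) in BoRed-Seq and by 0.36 in m7G-RIP. Enriched miRNAs then made up 79.2% and 58.6% of calls in these assays, against 54.2% and 47.8% in the main fits. Leaving miR-21-5p out of the totals shifted the median by -1.0 and -0.36 and gave 37.7% and 36.6%. Thinning Ctrl to the depth of Red shifted BoRed-Seq by 0.81 (67.8% of calls enriched), edgeR with TMM factors by -0.46 (43.4%) and TMM factors in DESeq2 by -0.42. In BoRed-Seq miR-183-5p also lost its call with TMM factors (adjusted p = 0.115). miR-200c-3p stayed enriched in BoRed-Seq, and miR-200b-3p depleted in m7G-RIP, under every alternative run. In BoRed-Seq, total counts turned miR-200b-3p to 0.76, miR-200a-5p to 0.85, miR-215-5p to 0.31, miR-182-5p to 1.02, miR-9-5p to 0.37 and miR-221-3p to 0.61, and miR-200a-3p became -0.45 with totals that leave out miR-21-5p, -0.30 with no count filter and -0.07 with the replicate block. Thinning gave 0.30 for miR-200b-3p, 0.42 for miR-182-5p and 0.01 for miR-221-3p. Leaving out 1 library moved miR-200b-3p between -1.09 and 0.13, miR-200a-5p between -1.17 and 0.26, miR-200a-3p between -1.27 and 0.98 and miR-182-5p between -0.44 and 0.22 (without Red 1: 0.13, 0.26 and 0.22 for the first, second and last; without Red 2: -1.27 for miR-200a-3p). In m7G-RIP, miR-200c-3p became 0.29 with total counts and 0.31 in replicates 1 to 3, and ran from -0.22 to 0.09 with 1 library left out (0.01 without Input 4, 0.09 without IP 4, 0.04 without IP 5); miR-200a-5p became 0.06 in replicates 4 and 5, and its difference between assays became -0.25 with the interaction term, -0.04 with TMM factors and -0.16 with totals that leave out miR-21-5p. Depleted miRNAs in BoRed-Seq numbered 109, but 167 with edgeR, 167 with totals that leave out miR-21-5p, 46 with total counts, 71 with 10 counts in every library (71 enriched then, against 129), 58 after thinning and 62 to 86 with 1 library left out; depleted members rose from 0 to 1 (miR-429) with edgeR and with totals that leave out miR-21-5p. In m7G-RIP, 10 counts in every library left 116 depleted miRNAs against 200, and 1 depleted member against 3, since miR-200a-3p and miR-429 were then not tested. Enriched members there went from 1 to 0 (miR-200b-5p) with edgeR, with totals that leave out miR-21-5p, with no count filter, with the replicate block, in replicates 1 to 3 alone and in 8 of the 10 fits with 1 library left out (0 to 1; adjusted p = 0.0504 to 0.143 in those 8), the exceptions being those without IP 1 or IP 2. Between assays, miRNAs higher in m7G-RIP numbered 33, but 60 with the interaction term and 9 with total counts, and those higher in BoRed-Seq 113, but 55 with 10 counts in every library. For the count ratios, the block by pairs gave the same rises of 3.31, 4.51 and 2.40 with an adjusted p of 0.104; the miR-200b arm ratio rose by 2.21 in replicates 1 to 3 and by 4.95 in replicates 4 and 5, and miR-200a-3p over miR-200b-3p changed by -3.19 to -1.58 with 1 library left out and by -0.20 in replicates 4 and 5. The replicate block changed no other call of a member, and in BoRed-Seq the numbers link only 2 pairs (r = 0.11), so there they are a shared number only. The causes were not tested. Depth limits BoRed-Seq, where the members other than miR-200b-3p and miR-200c-3p had at most 37 counts in a Red library.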
